A study of Rattus norvegicus with 30 samples.

Results

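The genes described here are those whose transcript levels differed most between pups of the same group in bulk RNA sequencing of rat brain tissue. Of 32586 genes in the count table, 10671 had a mean of at least 8 CPM (the count divided by the library total and multiplied by 1000000) and no library under 0.5 CPM. A further 361 of these were left out because their group median differed 1.41-fold or more between NEC VPA and NEC control or between GAERS control and NEC control, and 64 of the 361 varied within groups more than the least variable member did. The remaining 10310 were ranked by the standard deviation (SD) of log2(CPM + 0.5) within groups, pooled over 4 groups, and the 150 genes with the largest SD are the members. They were thus chosen by measured spread, and their spread is given as a description.

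The 30 pups came from 2 inbred strains, each with unexposed pups and pups exposed to valproate (VPA). Each library is from the brain tissue of 1 pup. The NEC strain has 8 control and 7 VPA pups, and the GAERS strain likewise has 8 control and 7 VPA pups. Age, sex, litter, brain region, dose, timing of exposure and sequencing batch are not given in the labels, so differences of these kinds between pups of a group cannot be told apart from other differences between them. Replicate numbers only name the pups, and p-values set a group difference against the spread between these pups. With litter not given, whether pups of a group are independent is not known.

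GAERS (Genetic Absence Epilepsy Rats from Strasbourg) are an inbred line that has absence seizures without provocation. NEC (Non-Epileptic Controls) were bred alongside them for freedom from seizures. Valproate is given against seizures, and it blocks histone deacetylases, enzymes that take acetyl groups off histones and so affect how tightly DNA is packed. Pups of an inbred strain are nearly identical genetically. In bulk tissue, fewer cells of a type and less RNA per cell cannot be told apart. The genes carry Ensembl rat identifiers that the files do not pair with symbols, so their functions, and markers of brain regions or cell types, are not reported.

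The members' within-group SD ran from 0.414 to 1.10 on the log2 scale, with a median of 0.504, against a median of 0.122 over the 10310 ranked genes. The last 3 genes inside the limit had SDs of 0.418, 0.416 and 0.414, and the first 3 outside it 0.413, 0.412 and 0.411, so the limit falls on no gap. The members were not confined to weakly expressed genes. Their mean level ran from 8.03 to 360 CPM, with a median of 25.1 CPM, against a median of 45.0 CPM over the ranked genes. With the ranked genes divided by mean CPM into 4 equal parts, from lowest to highest, 68, 43, 20 and 19 were members. The lowest count of any member in any library was 16, and each member's SD was 4.77 to 42.2 times the SD that counting reads alone would give, with a median of 9.38 times. For the ranked genes that median was 3.30 times.

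A few pups carried most of this spread. The share of a pup was taken as its part of the sum of squared deviations from group means, where an even share is 3.33%. NEC control 3 carried 28.3% over the members, GAERS control 1 20.9% and NEC VPA 7 11.05%. Together these 3 pups held 60.2% of the members' sum of squares and 41.3% of that of all ranked genes. One of them was the pup farthest from its group mean for 143 of the 150 members: NEC control 3 for 78, GAERS control 1 for 39 and NEC VPA 7 for 26. Of the ranked genes, these pups were farthest for 49.6%, 16.02% and 3.01%, in that order. They carried 25.2%, 11.01% and 5.08% of the sum of squares of the ranked genes. The part of NEC control 3 was thus largely not particular to the members, while those of GAERS control 1 and NEC VPA 7 were larger in the members. The next highest share was the 4.49% of NEC control 2.

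**Figure D1:**
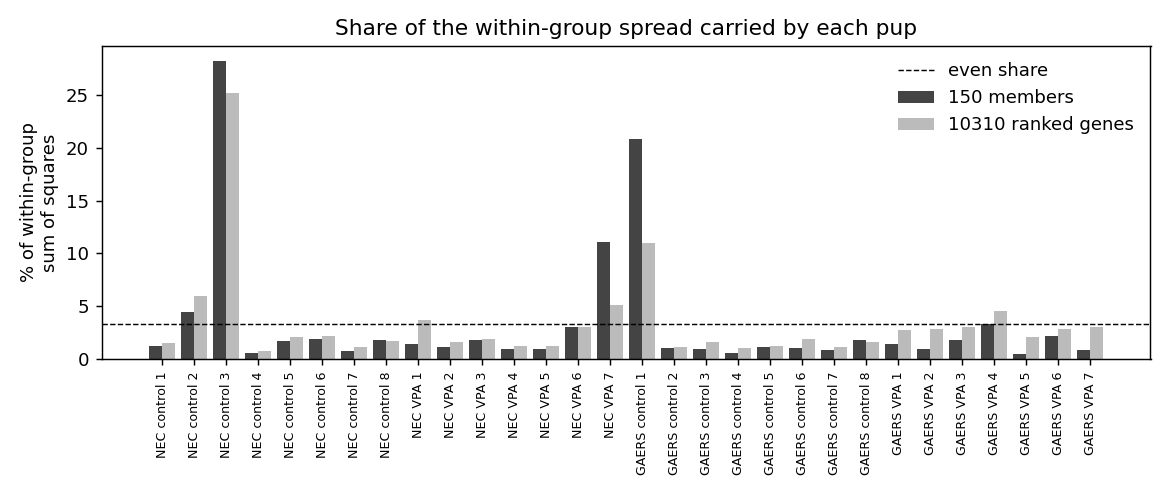
Percent of the within-group sum of squares of log2(CPM + 0.5) carried by each of the 30 pups, for the 150 members (dark bars) and the 10310 ranked genes (light bars), with the even share of 3.33% as a dashed line. NEC control 3, GAERS control 1 and NEC VPA 7 stand at 28.3%, 20.9% and 11.05% for the members, and every other pup is at 4.49% or below.

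NEC control 3 and GAERS control 1 also stood apart over all genes, as the pups with the lowest and second lowest median correlation with the rest of their group. NEC VPA 7 and GAERS VPA 4 had the lowest such correlation in their groups, but by little. NEC VPA 7 had 0.987, against 0.988 in the next pup, NEC VPA 1. GAERS VPA 4 had 0.985, against 0.988 in GAERS VPA 3. These 4 libraries, 1 per group, are left out where results are given for 26 pups. Depth was 26963266 to 56568656 counts per library. NEC VPA 7 was the shallowest library, while NEC control 3 and GAERS control 1, at 35293830 and 39712534 counts, lay inside the range of the others. NEC control 3 had the lowest TMM scaling factor, 0.905, against 0.962 to 1.04 in the 26 pups. It also had the fewest genes at 1 CPM or more, 13609, against 13658 to 14114 in the 26, and the largest share of counts in its 100 most abundant genes, 17.3% against 14.4% to 15.7%. The part of these library differences in the results was not tested.

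Genes that varied together were found by average linkage on the correlation of their deviations from group means over the 30 pups, and the linkage was divided at 1 minus r of 0.5. This gave a set of 101 genes (set A), a set of 42 genes (set B) and 7 genes in neither. At the finer division of 0.4, set A came apart into sets of 51, 35 and 15 genes (A1, A2 and A3), while 40 of the 42 genes of set B stayed together. The median correlation between gene pairs was 0.832 inside A1, 0.859 inside A2, 0.871 inside A3 and 0.792 inside B. Between A1 and B it was -0.65. These values describe the sets that the linkage was built to find. The joining of A1, A2 and A3 into 1 set depended on the scaling of the libraries. With TMM-scaled library sizes and a division of 0.5, the largest clusters held 51 and 50 genes, all from set A. These are fewer parts than the finer division of 0.4 gave with column totals. The sets of that finer division are described singly.

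**Figure D2:**
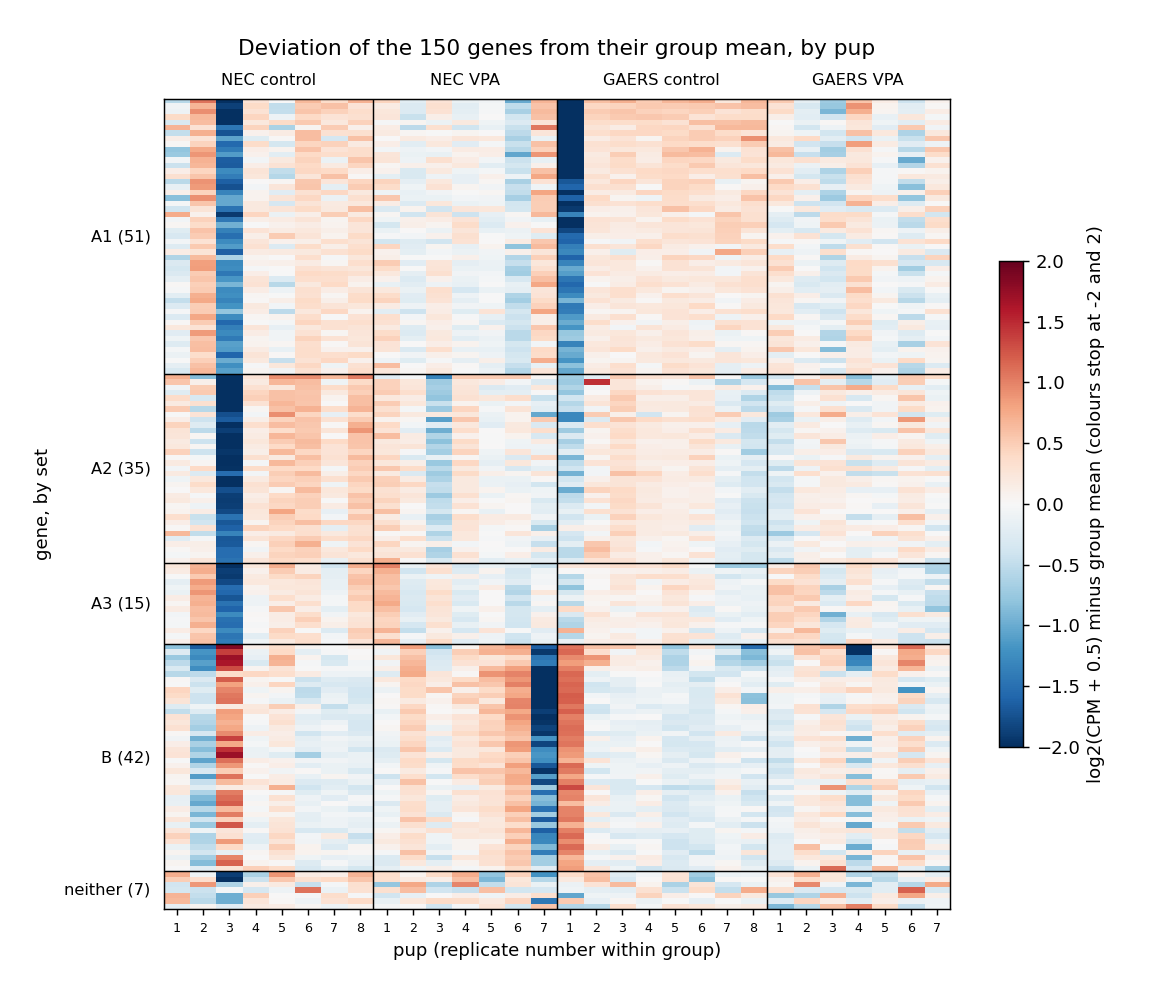
Deviation of each of the 150 genes (rows, by set, with the number of genes in brackets) from its group mean of log2(CPM + 0.5) in each of the 30 pups (columns, by group), blue for lower and red for higher, with colours ending at -2 and 2. NEC control 3 is low throughout A1, A2 and A3, GAERS control 1 is low in A1 and high in B, and NEC VPA 7 is low in B.

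Set A1 was low in 1 control pup of each strain. Its level, the mean log2(CPM + 0.5) over its 51 genes, was 3.57 in NEC control 3 and 4.81 to 5.55 in the other 7 NEC controls. In GAERS control 1 it was 3.23, against 5.22 to 5.34 in the other 7 GAERS controls. All 51 genes were at their group's lowest in NEC control 3, by a median of 2.87-fold from the median of the other pups, and all 51 were lowest in GAERS control 1, by a median of 3.55-fold. Over the 10310 ranked genes, NEC control 3 was lowest of its group for 48.5% and GAERS control 1 for 35.1%. The exposed groups had no pup as low, with 4.92 to 5.73 in NEC VPA and 4.79 to 5.39 in GAERS VPA. The top of the NEC VPA range was NEC VPA 7, which was highest of its group for 32 of the 51 genes. That pup was highest of its group for 17.003% of the ranked genes. Smaller excursions were seen in other NEC pups. NEC VPA 6 was lowest of its group for 37 genes, with a median over all 51 of 1.39-fold lower. NEC control 2 was highest for 41. Of the ranked genes, 21.9% were lowest in NEC VPA 6 and 24.2% highest in NEC control 2. Apart from GAERS control 1, the unexposed GAERS pups were close to one another, with an SD of the level of 0.047 (n = 7). It was 0.249 (n = 7) in the other NEC controls, 0.205 (n = 6) in NEC VPA without pup 7 and 0.188 (n = 6) in GAERS VPA without pup 4.

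Set A2 was low in NEC control 3 above all. Its level there was 2.34, against 4.28 to 4.84 in the other NEC controls, and all 35 genes were lowest in that pup, by a median of 4.48-fold. GAERS control 1 had a level of 4.25, just below GAERS control 8 at 4.39, with the other 6 GAERS controls at 4.66 to 5.10. Of the 35 genes, 19 were lowest in GAERS control 1 and 16 in GAERS control 8. Of the ranked genes, 35.1% and 10.2% were lowest in these pups. Over all 35 genes these pups were below the median of the rest of their group by medians of 1.53-fold and 1.45-fold. Among exposed pups, NEC VPA 3 (level 4.05) was lowest of its group for 30 genes and GAERS VPA 1 (level 4.45) for 26 genes, with medians over all 35 genes of 1.63-fold and 1.33-fold lower. They were lowest for 8.03% and 14.1% of the ranked genes. Neither of these exposed pups was low in A1, where NEC VPA 3 had a level of 5.45 and GAERS VPA 1 of 5.28.

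Set A3 was low in NEC control 3, at a level of 2.62 against 4.12 to 4.89 in the other NEC controls, with all 15 genes lowest there by a median of 3.35-fold. Other pups stood at either end of their groups. NEC VPA 1 was highest of its group for 15 of the 15 genes, by a median of 1.68-fold, NEC control 2 was highest for 12, and GAERS VPA 1 and GAERS VPA 2 were highest for 8 and 6. Of the ranked genes, these pups were highest for 29.0%, 24.2%, 10.7% and 14.6%, in that order. NEC VPA 6 was lowest of its group for 11 of the 15, GAERS VPA 7 for 8 and GAERS VPA 3 for 6. They were lowest for 21.9%, 19.2% and 13.0% of the ranked genes. In GAERS control 1 the level was 4.32, the lowest of its group but close to the other pups, which ran from 4.38 to 4.80. GAERS control 1 was lowest of its group for 9 of the 15 genes, and GAERS control 5 was highest for 9. Of the ranked genes, 35.1% were lowest in GAERS control 1 and 9.44% highest in GAERS control 5.

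Set B moved the other way from A1. NEC VPA 7 had a level of 2.94, against 4.40 to 5.16 in the other 6 exposed NEC pups, and was lowest of its group for all 42 genes, by a median of 3.56-fold. GAERS control 1 had a level of 5.84, against 4.54 to 4.83 in the other GAERS controls, and was highest for all 42, by a median of 2.24-fold. NEC control 3 had a level of 5.82, against 4.26 to 5.14, and was highest for 34, with a median over all 42 genes of 2.12-fold higher. Over the ranked genes, NEC VPA 7 was lowest for 21.5%, GAERS control 1 highest for 29.1% and NEC control 3 highest for 30.6%. Smaller excursions were also shared by most genes: NEC VPA 6 was highest of its group for 39 of the 42, and NEC control 2 was lowest for 31, with a median over all 42 genes of 1.49-fold lower. Of the ranked genes, NEC VPA 6 was highest for 18.0% and NEC control 2 lowest for 25.3%. In GAERS VPA the level ran from 4.55 in GAERS VPA 4 to 5.21 in GAERS VPA 6. GAERS VPA 4 was lowest for 21 genes and highest for 3, so its low level came from part of the set. It was lowest for 18.3% of the ranked genes and highest for 23.3%.

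**Figure D3:**
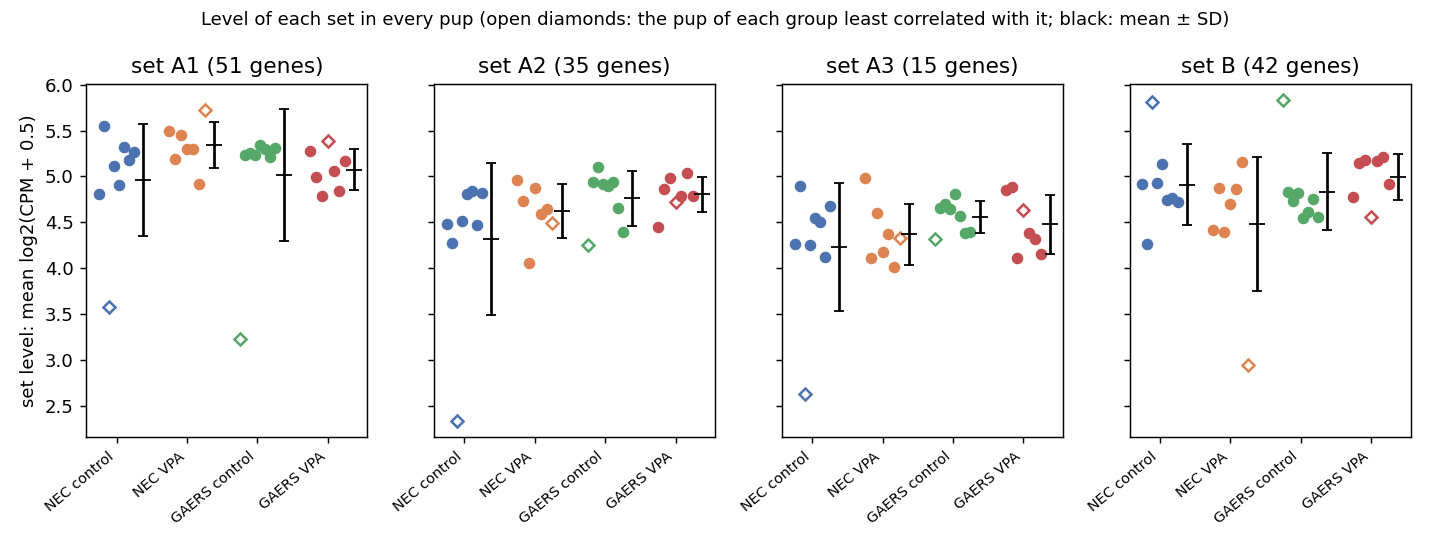
Set level (mean log2(CPM + 0.5) over the set's genes) in every pup, by group, for sets A1, A2, A3 and B, with open diamonds for the pup of each group that correlated least with it over the ranked genes, and black marks for the group mean ± SD. In A1 the diamonds at 3.57 (NEC control) and 3.23 (GAERS control) lie below all other pups, and in B the same pups lie at 5.82 and 5.84, above all others.

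As a share of all counts in a library, set A (the 101 genes of A1, A2 and A3) made up 0.134% in NEC control 3 and 0.246% in GAERS control 1, against 0.398% to 0.645% in the 26 pups. Set B made up 0.530% and 0.459% in these pups and 0.0721% in NEC VPA 7, against 0.157% to 0.286% in the 26. The 150 members together made up 0.669% to 0.849% in all 30 pups. The sum therefore moved little where its 2 parts moved far in opposite directions.

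Single genes show these patterns. From each of A and B, the gene with the largest SD and the gene most correlated with the mean of its set are given, by identifier. ENSRNOG00000005049, in A1, had the largest SD of all members. Its level was 2.22 CPM in GAERS control 1 and 54.4 to 77.2 CPM in the other 7 GAERS controls. In NEC control 3 it was 8.39 CPM, and 34.2 to 107 CPM in the other NEC controls. In exposed pups it ran from 41.6 CPM through a median of 80.0 CPM to 135 CPM in NEC and from 33.7 CPM through 58.5 CPM to 81.5 CPM in GAERS. The low control pups are thus below every exposed pup, and the remaining pups of the 4 groups overlap.

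ENSRNOG00000006649, also in A1, was at 2.27 CPM in NEC control 3 and 7.16 to 10.4 CPM in the other NEC controls. It was at 4.15 CPM in GAERS control 1 and 8.90 to 10.8 CPM in the other GAERS controls. Exposed pups had 6.95 to 11.8 CPM in NEC and 7.38 to 9.46 CPM in GAERS. Outside these low pups this gene varied little, and its groups overlap.

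ENSRNOG00000005457, in B, had the second largest SD of all members. It was at 61.0 CPM in NEC control 3 and 4.86 to 21.3 CPM in the other NEC controls, and at 27.0 CPM in GAERS control 1 and 3.995 to 19.1 CPM in the other GAERS controls. Among exposed pups it was at 3.82 CPM in NEC VPA 7 and 7.13 to 23.3 CPM in the others of that group, and at 3.09 CPM in GAERS VPA 4 and 18.7 to 48.3 CPM in the others. Each of these 4 pups was the lowest or highest of its group. Other pups were low too, with 3.995 CPM in GAERS control 8 and 4.86 CPM in NEC control 2.

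ENSRNOG00000011533, in B, was at 20.2 CPM in NEC control 3 and 6.98 to 11.9 CPM in the other NEC controls, and at 23.4 CPM in GAERS control 1 and 8.38 to 9.67 CPM in the other GAERS controls. The other exposed NEC pups had 7.79 to 15.1 CPM, and NEC VPA 7 had 2.23 CPM. Exposed GAERS pups had 10.8 to 16.9 CPM, with no pup apart. Leaving out GAERS control 1, every exposed GAERS pup was above every unexposed GAERS pup.

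**Figure D4:**
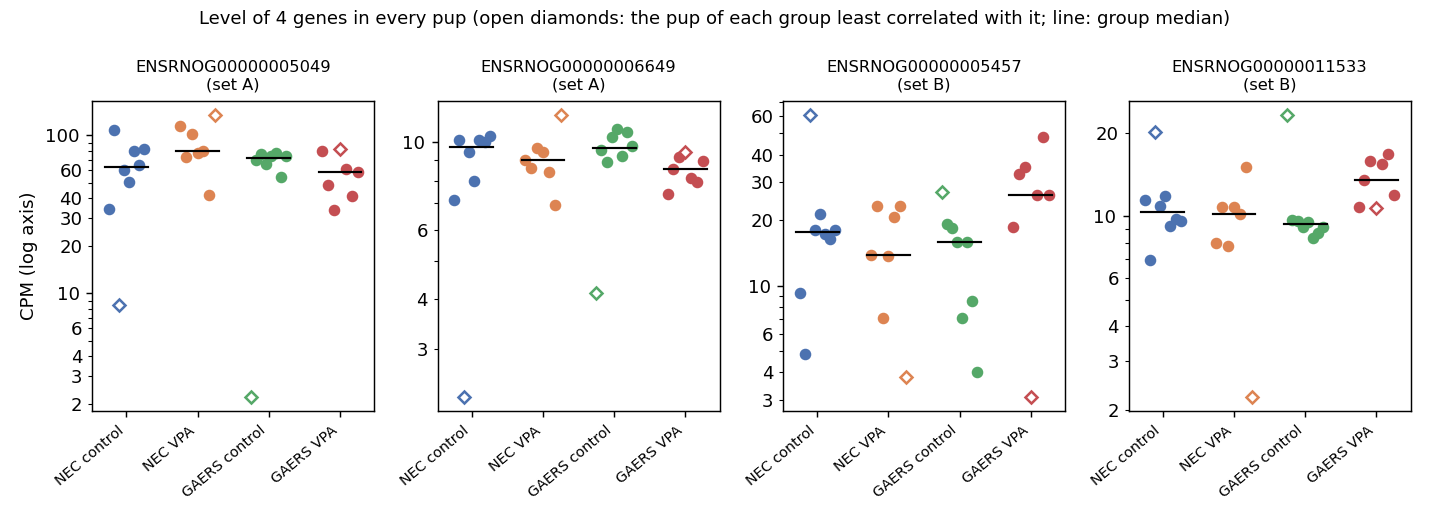
CPM (log axis) of the 4 genes in every pup, by group, with a line at the group median and open diamonds for the pup of each group that correlated least with it over the ranked genes. ENSRNOG00000005049 falls to 8.39 and 2.22 CPM in NEC control 3 and GAERS control 1, and ENSRNOG00000011533 rises to 20.2 and 23.4 CPM in the same pups and falls to 2.23 CPM in NEC VPA 7.

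The pup farthest from its group mean was NEC control 3, GAERS control 1 or NEC VPA 7 for 4 of the 7 members in neither set. A trio of them correlated with each other and was low in NEC control 3, by a mean of -1.69 on the log2 scale from the group mean, and in NEC VPA 7, by -1.06, but not in GAERS control 1, where the mean deviation was 0.36. The remaining 4 joined no other member. Their farthest pups were NEC VPA 4, GAERS VPA 6, GAERS control 1 and GAERS VPA 4, with deviations of 0.98, 1.18, -1.04 and 1.02. Without the 4 far libraries the SD of these 7 members ran from 0.257 to 0.558 with a median of 0.413, and the medians were 0.282 for set B and 0.287 for set A.

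Leaving out the 4 far libraries lowered the members' spread and changed part of the grouping. The median SD fell from 0.504 over 30 pups to 0.288 over 26, and 14 of the 150 kept an SD above the lowest SD of any member over 30 pups. Each of the 150 was still above the ranked genes' median of 0.0988. Applied to the 26 pups, the rule kept 86 of the 150 as members (59 of A, 22 of B and 5 of neither). NEC control 2 then carried the largest share of the sum of squares over the 150 genes chosen from 26 pups, 11.8%. The median pair correlation over 26 pups was 0.465 inside A1, 0.663 inside A2, 0.771 inside A3 and 0.559 inside B. Between A1 and A2 it changed from 0.495 over 30 pups to -0.15 over 26, and between A2 and B from -0.23 to 0.17. The positive correlation of A1 with A2 thus rested on the far libraries. When these 150 members were clustered again over the 26 pups, the largest cluster joined 24 genes of A1 with 15 of A3. Other genes of A1 formed clusters of 14 and 5. A cluster of 31 genes was all from A2. Set B came apart into 28 genes and 8 genes, the 8 with 1 gene of neither set. A1 and B thus did not stay whole in the 26 pups, and A3 was not apart from A1.

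Sets A1 and B stayed opposed without the far libraries, although the median correlation between their gene pairs changed from -0.65 to -0.47. Over all 30 pups, the mean deviations of the 2 sets were correlated, with -0.79 for Pearson's r and -0.91 for Spearman's rho. Over the 26 pups, with deviations taken from the group means of those pups, r was -0.89 and rho -0.91, and r was -0.90 after also leaving out the 2 pups farthest from the median of A1. Within the groups, without the far pup of each, r was -0.88 in NEC controls (n = 7), -0.95 in NEC VPA (n = 6), -0.93 in GAERS controls (n = 7) and -0.89 in GAERS VPA (n = 6). With TMM-scaled library sizes r over the 26 pups was also -0.89, and -0.82 after leaving out the 2 pups farthest from the median of A1. The points share their libraries, both sets were formed on these values, and both are parts of 1 total of counts per library, so the correlations are a description. Set A3 was opposed to B as well, with r of -0.50 over 30 pups and -0.57 over 26. For A2 and B, r was -0.30 over 30 pups and 0.42 over 26.

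**Figure D5:**
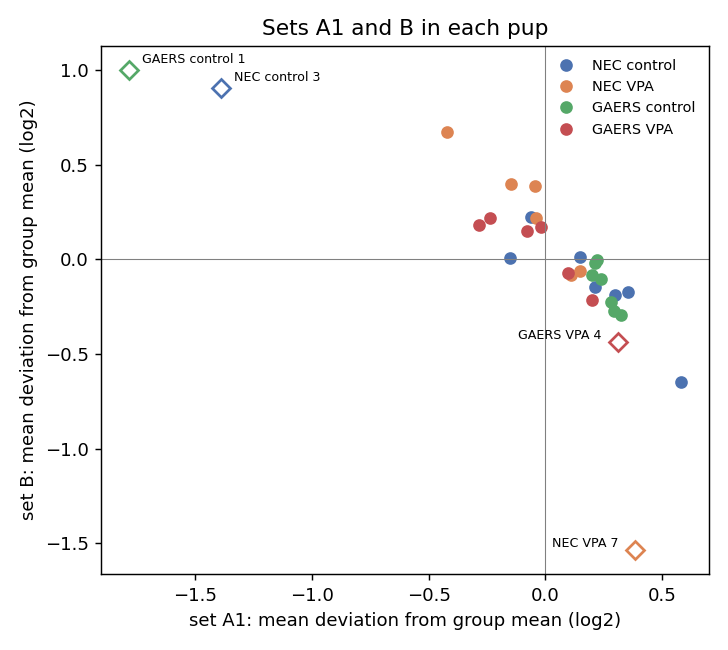
Mean deviation of set A1 (horizontal axis, log2) and of set B (vertical axis, log2) from the group mean over all pups of the group, for 30 pups coloured by group, with open diamonds for the 4 far pups. Pups low in A1 are high in B, with r = -0.79 over 30 pups and -0.89 over the 26 pups without the diamonds.

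Because the same pups entered the ranking and the linkage, the sets were also formed in 1 strain and their correlations read in the other. Clusters of 103 and 42 genes formed in the 15 NEC pups; the first held all of A and the second all of B. Among the 15 GAERS pups, pairs inside the 103 had a median r of 0.456 and pairs inside the 42 a median r of 0.707, against 0.145 over all pairs of members. The 49 genes of the largest GAERS cluster, 48 of them from A1, had a median r of 0.841 in NEC pups, where all pairs had 0.530. Without the 4 far libraries, the median over all pairs in NEC was 0.085. The largest NEC cluster then held 44 genes, 29 from A1 and 15 from A3. Their median r was 0.510 in 13 GAERS pups, where all pairs had 0.007. The largest GAERS cluster then also held 44 genes, 30 from A2 and 14 from B, with a median r of 0.663 in NEC. Both clusters thus cut across the sets described above. The NEC cluster that held all 42 genes of B, with 2 others, had a median r of 0.333 in GAERS. A cluster of 32 genes, all from A2, had a median r of 0.746 in NEC and 0.749 in GAERS. The members were ranked on pups of both strains, so these readings are not independent of the choice of genes.

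Group means of the sets depended on single pups. The level of B in NEC VPA was -0.43 from that of NEC control over all pups and -0.047 without the far pup of each group, and the level of A1 was 0.38 higher and 0.11 higher. In GAERS, leaving out the far pups took the difference of VPA from control from 0.060 to -0.25 for A1 and from 0.16 to 0.37 for B. In both strains the difference thus moved down for A1 and up for B. The first contrast was used by the rule, and the differences in set level carry no test.

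Valproate in GAERS and strain in exposed pups are the comparisons that the rule did not use directly, and both were tested gene by gene with edgeR's quasi-likelihood test over all 30 libraries, with Benjamini-Hochberg adjustment over 15885 genes. The rule left out genes whose group medians differed 1.41-fold or more between strains in unexposed pups or with valproate in NEC. All tested genes include these, so a share of members below that of all tested genes is partly set by the rule. The members' large within-group SD enters the error of these tests: their median standard error of the log2 fold change was 0.232 for valproate in GAERS, against 0.0641 for the ranked genes that were not members. For valproate in GAERS, 0 of the 150 members had an adjusted p under 0.05, where 3.82% of all tested genes did (299 higher and 308 lower in exposed pups). At an unadjusted p under 0.05 there were 6 members (4.0%), all in A1, against 17.9% of all tested genes, and DESeq2 called 0 members among 880 genes. For strain in exposed pups, 0 members passed by edgeR, where 12.3% of all tested genes did (950 higher and 1001 lower in GAERS). There were 14 members (9.33%) at an unadjusted p under 0.05, against 27.7% of all tested genes, and DESeq2 called 1 member among 2294 genes.

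Without the 4 far libraries, 20 of the 150 members passed for valproate in GAERS, or 13.3%, where 5.98% of 15898 tested genes did. Of the GAERS pups left out, GAERS control 1 was lowest of its group in A1 (3.23) and highest in B (5.84). GAERS VPA 4 was highest of its group in A1 (5.39) and lowest in B (4.55). Leaving them out thus shifts A1 down and B up in exposed GAERS pups against controls, so the directions below are a description. In A1, 9 of 51 genes were lower in exposed GAERS pups and 1 was higher. In B, 10 of 42 were higher and 0 lower, and 0 of the A2 and A3 genes passed. The median log2 fold change was -0.23 over A1 and 0.35 over B, against 0.0043 over all tested genes. ENSRNOG00000011533 was among those that rose, with a log2 fold change of 0.59 ± 0.13 (standard error; edgeR adjusted p = 0.00566) against 0.28 ± 0.26 (adjusted p = 0.632) with all libraries and adjusted p of 0.214 to 0.682 under the other settings. It was higher in all 6 remaining exposed GAERS pups than in all 7 remaining unexposed ones. ENSRNOG00000005457 rose as well, by 1.26 ± 0.35 (adjusted p = 0.0334), and had 0.87 ± 0.48 (adjusted p = 0.35) with all libraries and adjusted p of 0.233 to 0.463 under the other settings. Single libraries gave smaller counts: 4 members passed without GAERS control 1 (2.67%, against 3.98% of all tested genes) and 3 without NEC control 3 (2.0% against 6.52%).

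For strain in exposed pups without the 4 far libraries, 20 members passed again, or 13.3%, below the 18.6% of all tested genes. The 18.6% includes genes that the rule left out for a median difference between the strains in unexposed pups. Among the members, 8 genes of A1 were lower in GAERS, 4 of A2 were higher and 8 of B were higher. The median log2 fold change was -0.28 over A1 and 0.33 over B, against 0.0048 over all tested genes. Over all 30 libraries the medians were -0.30 over A1, with 48 of 51 genes below 0, and 0.39 over B, with 42 of 42 above 0. Of the 15885 tested genes, 7941 were above 0 and 7944 below in that fit. Without NEC VPA 7 alone, the median over B was 0.24, with 39 of 42 above 0. The genes of a set were grouped because they vary together in these pups, so they are not separate observations and these counts are a description. Both comparisons share the exposed GAERS pups, so their values are not independent of each other. ENSRNOG00000011533 had a log2 fold change of 0.41 ± 0.13 (standard error; edgeR adjusted p = 0.028) without the 4 libraries and 0.52 ± 0.27 (adjusted p = 0.21) with all, and adjusted p of 0.13 to 0.381 under the other settings. Without NEC control 3, 7 members passed (4.67%, against 17.2% of all tested genes). Without GAERS control 1, 5 passed (3.33% against 14.5%), and without GAERS VPA 4, 2 passed (1.33%, where 2391 of 15955 tested genes did). The far libraries were picked by their low correlation with their group over the ranked genes, and the genes by their spread in the same libraries. Leaving them out took the members' median standard error for valproate in GAERS from 0.232 to 0.151, and that of the other ranked genes from 0.0641 to 0.0556.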

How the data were processed

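Brain RNA of 30 pups was sequenced from stranded total RNA libraries, per the labels. The authors deposited raw counts per Ensembl gene, with no normalization. The submitters' processing notes name FastQC, STAR 2.5 and the build Rnor_6.0 (rn6). How reads were counted, with which annotation and whether by strand, is not given in the sources used here. Overlapping, antisense or near-identical genes may therefore share reads. A RefSeq table of assembly GRCr8 has an empty Ensembl column, so 0 of 32586 identifiers could be matched, 24 gene lists were not run, and no sequence is shown. The members and lists were chosen with earlier results of these data known. CPM used column totals. Tests used R 4.3.3 with edgeR 4.0.16 (filterByExpr, TMM, robust quasi-likelihood fit of 4 groups), with DESeq2 1.42.0 as an alternative; the fit and the choice of members were tested on simulated data. The named genes were, per cluster, the gene of largest SD and the gene most correlated with the cluster mean, shortened to 2 identifiers per set because no symbols were at hand. Settings tried were RLE scaling, no filter, a fit on the compared groups, other pseudocount, scaling, spread measure, correlation and linkage division, and leaving out the 4 far libraries. Leaving out each of the 4 singly, and the other settings for reading clusters across strains, were added after the data were seen.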

Additional observations from a re-analysis of the deposited data

Results flagged for a closer look

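In each of 32 sets of values (the levels of A1, A2, A3 and B and the CPM of 4 genes, in 4 groups) the lowest and highest pup were compared with the rest by Dixon's ratio of gap to range, and 12 pups' values passed its 95% limit. Chance alone flags about 1 in 20 such groups, or 1.6 of 32, but these genes were chosen for their spread, so the count is a description.

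NEC control 3 stood apart as the lowest NEC control in the level of A1 (3.57, next pup 4.81), A2 (2.34, next 4.28) and A3 (2.62, next 4.12). It was also lowest for ENSRNOG00000006649 (2.27 CPM, next 7.16 CPM), and highest for ENSRNOG00000005457 (61.0 CPM, next 21.3 CPM) and ENSRNOG00000011533 (20.2 CPM, next 11.9 CPM). GAERS control 1 stood apart as the lowest GAERS control in A1 (3.23, next 5.22), ENSRNOG00000005049 (2.22 CPM, next 54.4 CPM) and ENSRNOG00000006649 (4.15 CPM, next 8.90 CPM). It was the highest in B (5.84, next 4.83) and ENSRNOG00000011533 (23.4 CPM, next 9.67 CPM). NEC VPA 7 stood apart as the lowest exposed NEC pup in B (2.94, next 4.40). No pup of GAERS VPA passed the limit in these 32 sets.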

How the results depend on the processing

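No paired analysis was possible because nothing in the labels ties pups of different groups together. Of the 150 members, 145 were also chosen with TMM-scaled library sizes and 137 with a pseudocount of 2, but 86 without the 4 far libraries and 82 by median absolute deviation. The largest cluster held 101 genes at a division of 0.5 and of 0.6, and 57 with Spearman's rho, 51 at 0.4, 51 with TMM and 39 without the 4 libraries. The largest GAERS cluster had a median r in NEC of 0.841, and 0.739 with Spearman's rho and 0.663 without the 4 libraries; these clusters hold different genes. Members called for valproate in GAERS were 0 with DESeq2, RLE scaling, no filter and the 2-group fit, 20 without the 4 libraries, and 0 to 4 without any 1 of them. For strain in exposed pups they were 1 with DESeq2, 8 with the 2-group fit, 20 without the 4, 0 to 7 without any 1 of them, and 0 with RLE scaling or no filter. Over all genes, valproate in GAERS called 607, 401 with no filter, 950 without the 4, and 279 (without GAERS VPA 4) to 1034 (without NEC control 3) without any 1 of them. Strain in exposed pups called 1951 and 2960 without the 4. The cause of these shifts was not tested. Of 72 alternative values for the 4 named genes, 69 stayed on their side of the threshold and 3 passed it, all without the 4 libraries. The members' SD was at least 4.77 times the SD from counting; the part of depth in the results was not tested.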
